A study of Mus musculus with 2 samples.

Results

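The SR proteins, the hnRNPs and their closest partners are the RNA-binding proteins and kinases that decide which exons a cell keeps in its messenger RNAs. The 38 genes described here were picked by a rule on gene symbols, out of 55414 genes counted in each library. They comprise all 11 genes named Srsf with a number, all 20 genes named Hnrnp with a letter code (pseudogene symbols left out), and Tra2a, Tra2b, Ptbp1, Clk1, Clk4, Srpk1 and Srpk2. RNA sequencing measured their transcripts in R1E, a line of pluripotent mouse cells derived from the early embryo, labelled wild type and kept in serum medium with leukemia inhibitory factor. One library came from untreated cells, labelled 0 h. The other came from R1E cells after 8 h in 0.5 µM Adriamycin, another name for doxorubicin, which traps topoisomerase II on DNA and leaves breaks. With a single library per condition no difference could be tested, and the drug, the culture and the time in culture cannot be told apart.

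SR proteins carry RNA recognition motifs and a tail rich in arginine and serine. They bind exonic enhancers and mostly promote the use of an exon, whereas many hnRNPs bind silencers and oppose it. SRPK kinases in the cytoplasm and CLK kinases in the nucleus phosphorylate the arginine-serine tail, which controls where SR proteins are and what they bind. Many of these genes limit their own output by including a poison exon, whose premature stop codon sends the transcript to nonsense-mediated decay (NMD). In mouse stem cells Srsf3 is needed to maintain pluripotency, and Ptbp1 holds back neuronal exons. The tables count reads per gene over all exons, so they show transcript levels and not which exons were used.

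The untreated library held 41820999 gene-assigned reads and the Adriamycin library 38561292. Levels are given as CPM (reads per 1e6 reads, after TMM scaling of library size) or, to compare genes, per kilobase of counted exon (RPKM). Ratios are log2 of Adriamycin over untreated, and parentheses hold the exact 95% counting interval, which covers counting error only. A gene was called higher or lower at 2-fold or more, among 14871 measured genes (a mean of at least 1 CPM). Mdm2 and Cdkn1a, p53 targets read as a check of the drug response, were 7.16-fold and 3.10-fold higher. All 10 stem cell markers were detected, at 297.5 to 1094 CPM untreated and 157.7 to 947 CPM with Adriamycin, and 6 of them were at least 2-fold lower. Of 10 fibroblast markers, listed for feeder cells, Col3a1, Dcn, Lum and Postn had 0 reads in both libraries. An observed count of 0 still allows up to 3 expected reads. At least 2-fold higher were Fbln2 (247 and 2177 reads) and Col1a1 (214 and 1295 reads), and 0 fibroblast markers were that much lower. All 10 summed to 402 CPM untreated and 314 CPM with Adriamycin. Most of that was Vim, at 360.5 and 192 CPM, and the list without Vim summed to 41.2 and 122 CPM. Their part in the results below was not tested.

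Most splicing regulators were lower in the Adriamycin library, and by moderate amounts. Of 38 members, all measured, 34 had a log2 ratio below 0, against 51.6% of all measured genes. At least 2-fold lower were 8 members (21.1%), namely Srsf3, Srsf7, Hnrnpr, Srsf1, Tra2b, Srsf10, Hnrnpdl and Tra2a, against 6.95% of all measured genes. At 1.5-fold or more 17 members were lower, against 18.9%. Only 1 member, Srsf12, was at least 2-fold higher, against 17.0% of all measured genes. The median log2 ratio of the members was -0.56, beside -0.03 for all measured genes. Most members are abundant, 27 of them with a mean of at least 100 CPM. Among the 2521 measured genes at that level the median was -0.31, 70.6% were below 0, 27.9% were at least 1.5-fold lower, 8.89% at least 2-fold lower and 7.02% at least 2-fold higher. In bulk RNA, fewer cells of a type and less RNA per cell cannot be told apart. Together the members took 1.23% of untreated reads (Wilson 95% interval 1.22 to 1.23) and 0.941% of Adriamycin reads (0.938 to 0.944).

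The count of lower members depended on the scaling of library size. With total counts 3 members were at least 2-fold lower (Srsf3, Srsf7 and Hnrnpr), against 4.85% of all measured genes. With upper-quartile factors 11 members were, against 9.39%. Total counts moved the median of all genes from -0.03 to 0.12 and upper-quartile factors moved it to -0.15. The members' median lay 0.53 below that of all genes, and this gap says nothing about scaling, since a factor moves every ratio alike. Under all 4 scalings tried, 30 members were below 0 and 3 were above 0 (Srsf12, Srsf5 and Hnrnph1). Clk1, Clk4, Hnrnph3 and Hnrnpa3 were above 0 with total counts, and Ptbp1 was below 0 with upper-quartile factors.

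**Figure D1:**
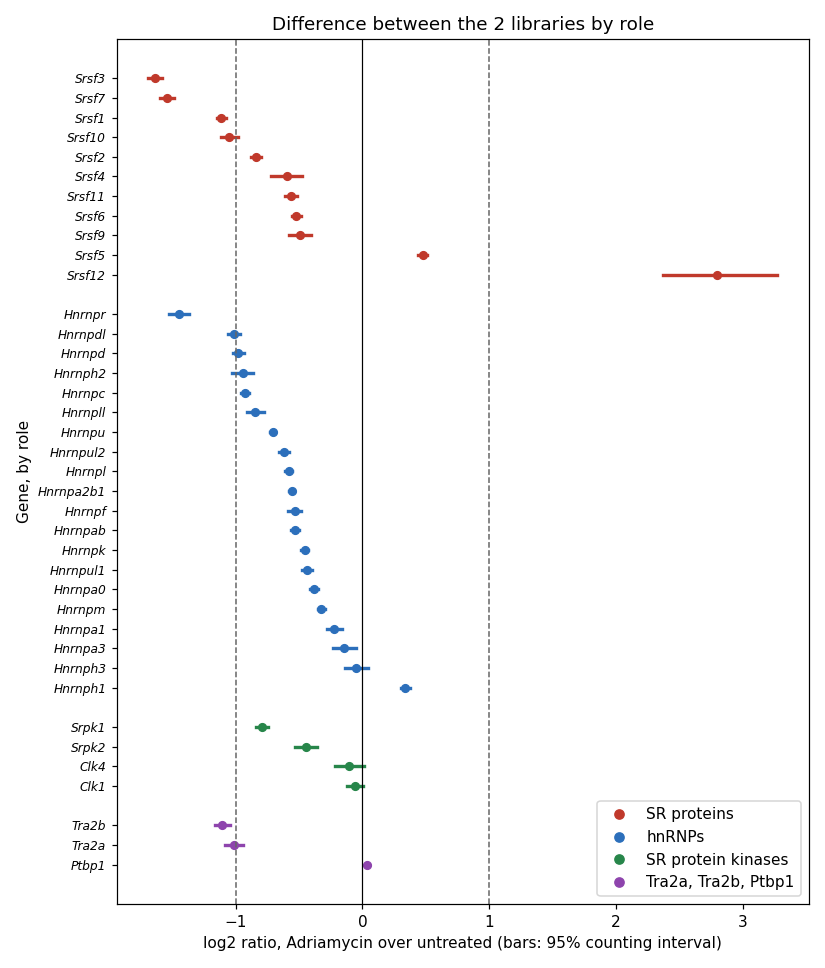
Log2 ratio of Adriamycin over untreated for each of the 38 genes, grouped by role, 1 library per condition. Points are ratios, bars are 95% counting intervals and dashed lines mark 2-fold. Srsf12 is the only gene right of the upper line and 8 genes lie left of the lower one.

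Of the 11 SR protein genes, 4 (36.4%) were at least 2-fold lower, against 6.95% of all measured genes and 8.89% of those with at least 100 CPM. At least 2-fold higher was 1, against 17.0% and 7.02%. The median log2 ratio of the SR protein genes was -0.60. Srsf3, a small SR protein that also couples splicing to polyadenylation and mRNA export (ENSMUSG00000071172, chromosome 17, 29251602 to 29262347, GRCm39), had 11133 untreated and 3655 Adriamycin reads. Its level was 35.4 and 11.4 RPKM, 3.11-fold lower with a log2 ratio of -1.63 (-1.69 to -1.58), the lowest of all members. Srsf7, its nearest paralog, which carries a zinc knuckle besides the RNA recognition motif (ENSMUSG00000024097, chromosome 17), had 9888 and 3456 reads, or 70.0 and 24.0 RPKM. It was 2.92-fold lower (log2 ratio -1.54, -1.60 to -1.49), so the intervals of this pair overlapped. Srsf1, a founding SR protein and the product of a proto-oncogene (ENSMUSG00000018379, chromosome 11), had 20977 and 9882 reads, or 92.4 and 42.7 RPKM. That is a 2.16-fold lower value (log2 ratio -1.11, -1.15 to -1.08). Its paralog Srsf9 differed less, with 2646 and 1920 reads, or 40.2 and 28.6 RPKM (log2 ratio -0.49, -0.58 to -0.41). The Srsf1 level per counted exon length was thus 2.30 times that of Srsf9 untreated and 1.49 times with Adriamycin. On the longest coding transcript Srsf1 and Srsf9 lay nearer each other, at 98.4 and 57.3 RPKM untreated and 45.5 and 40.8 RPKM with Adriamycin.

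Srsf10, a repressor of splicing when it loses its phosphates in heat shock, had 5452 and 2682 reads, or 19.6 and 9.45 RPKM, and was 2.07-fold lower (log2 ratio -1.05, -1.12 to -0.98). Its relative Srsf12 went the other way. Srsf12 had 49 untreated and 350 Adriamycin reads, 0.391 and 2.74 RPKM, and was 6.95-fold higher (log2 ratio 2.80, 2.37 to 3.27). Srsf12 is the least abundant member, with a mean of 4.93 CPM, and among measured genes of 1 to 5 CPM 31.8% were at least 2-fold higher. The Srsf10 level per counted exon length was 50.02 times that of Srsf12 untreated and 3.44 times with Adriamycin, so Srsf10 stayed the more abundant of the pair. The order was the same on the longest coding transcript (36.5 and 0.419 RPKM untreated, 17.6 and 2.94 RPKM with Adriamycin).

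Srsf4, Srsf5 and Srsf6 are paralogs that each carry a second, degenerate RNA recognition motif. Srsf4 and Srsf6 had close ratios, and Srsf5 went the other way. Srsf5 had 9879 and 13988 reads, or 62.3 and 86.5 RPKM, 1.39-fold higher (log2 ratio 0.47, 0.44 to 0.51). Srsf6 had 17478 and 12420 reads, or 91.4 and 63.7 RPKM (log2 ratio -0.52, -0.55 to -0.49). Srsf4 was rarer, with 1322 and 891 reads, or 9.33 and 6.17 RPKM (log2 ratio -0.60, -0.72 to -0.47). Per counted exon length Srsf5 was thus below Srsf6 untreated, at 0.682 of its level, and above it with Adriamycin, at 1.36 times. That change of order depended on the length used. Per length of the longest coding transcript, Srsf5 was above Srsf6 untreated (158 and 125 RPKM) and with Adriamycin (220 and 86.8 RPKM). Srsf5 was the only abundant SR protein gene with more reads after Adriamycin. Of the remaining SR proteins, Srsf2, a splicing activator known for its mutations in myeloid disease, had 14505 and 8254 reads (log2 ratio -0.84, -0.88 to -0.80). Srsf11, which acts on neuronal microexons, had 9150 and 6318 reads (log2 ratio -0.56, -0.61 to -0.52).

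The promoters of the lowest SR genes, Srsf3, Srsf7 and Srsf1, and of the 2 higher ones, Srsf5 and Srsf12, are shown to let their upstream sequence be compared. Each is the 250 bases before the RefSeq start on the gene's strand (GRCm38.p6): Srsf3 at chr17:29032410-29032659 (+), Srsf7 at chr17:80207306-80207555 (-), Srsf1 at chr11:88047123-88047372 (+), Srsf5 at chr12:80945249-80945498 (+) and Srsf12 at chr4:33209022-33209271 (+). Capitals mark matches on either strand. The motifs searched were the TATA box, spelled TATAAA, and the box spelled CCAAT. They also included the GC box, which was searched as GGGCGG, and the E-box, which was searched as CACGTG. For the ETS family of factors the letters were CCGGAAG. The core of the cAMP response element was searched as TGACGT. The E2F site, last of the 7 motifs, was searched as TTCGCGC. Where matches overlap or touch, as in Srsf5, the capitals run together. The RefSeq starts of Srsf7 and Srsf1 match the first bases of an M21 transcript, whereas those of Srsf3, Srsf5 and Srsf12 do not.
Srsf3: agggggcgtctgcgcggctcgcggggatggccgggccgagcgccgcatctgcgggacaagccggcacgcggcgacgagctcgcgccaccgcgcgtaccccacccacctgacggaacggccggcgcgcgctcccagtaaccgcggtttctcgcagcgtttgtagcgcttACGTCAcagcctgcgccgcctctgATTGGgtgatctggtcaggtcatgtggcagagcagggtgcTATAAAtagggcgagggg
Srsf7: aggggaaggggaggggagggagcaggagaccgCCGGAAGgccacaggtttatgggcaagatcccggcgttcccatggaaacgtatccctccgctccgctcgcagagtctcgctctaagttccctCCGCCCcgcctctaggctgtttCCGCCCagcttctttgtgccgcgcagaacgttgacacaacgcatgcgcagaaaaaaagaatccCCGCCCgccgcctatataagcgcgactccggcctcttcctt
Srsf1: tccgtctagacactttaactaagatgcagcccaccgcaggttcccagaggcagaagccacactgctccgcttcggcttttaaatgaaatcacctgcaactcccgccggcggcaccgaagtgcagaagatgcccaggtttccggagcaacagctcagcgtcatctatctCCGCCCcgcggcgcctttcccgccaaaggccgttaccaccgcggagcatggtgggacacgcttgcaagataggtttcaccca
Srsf5: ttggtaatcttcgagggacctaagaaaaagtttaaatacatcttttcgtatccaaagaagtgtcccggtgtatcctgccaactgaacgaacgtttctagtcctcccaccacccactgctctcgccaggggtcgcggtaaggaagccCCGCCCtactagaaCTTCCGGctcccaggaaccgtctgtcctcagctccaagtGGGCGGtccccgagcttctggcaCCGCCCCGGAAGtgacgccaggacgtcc
Srsf12: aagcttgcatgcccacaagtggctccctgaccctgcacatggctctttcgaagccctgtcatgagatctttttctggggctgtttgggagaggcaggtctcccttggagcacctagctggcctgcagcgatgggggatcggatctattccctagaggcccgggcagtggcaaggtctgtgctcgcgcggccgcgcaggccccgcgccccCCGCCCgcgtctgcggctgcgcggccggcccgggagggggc
In these windows Srsf3 has a TATA box, a CCAAT box and a cAMP response element core. Srsf7 has 3 GC boxes and 1 ETS site, Srsf5 has 3 GC boxes and 2 ETS sites, and Srsf1 and Srsf12 have 1 GC box each. A match is a run of letters and not a bound site.

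RefSeq windows from 250 bases before to 50 after the start were found for 35 of the 38 members, 49 windows in all, of which 20 match the start of an M21 transcript. The cAMP response element core was in the windows of 11 of these 35 members (31.4%), against 12.7% of 10884 measured genes and 8.37% of all 27025 genes with a window. A CCAAT box was in 57.1%, against 43.0% of measured genes and 41.1% of all genes. The GC box was in 85.7%, against 68.7% and 38.2%. A gene with several windows was counted once, by a match in any of them and by its highest CpG count. On that basis the median was 30 CpG over members and 22 over measured genes. Genes with more windows had more chances of a match, and this was not adjusted for. The letters searched for the cAMP response element core, the GC box, the E-box, the ETS site and the E2F site all hold a CpG. The part of CpG content in their shares was not tested. Of the 8 members at least 2-fold lower, 3 had the cAMP response element core, 5 a CCAAT box and 7 a GC box. That is beside 11, 20 and 30 of all 35. A TATA box was in 1 of the 8 and an ETS site in 1, beside 5 and 6 of all 35. The E-box and the E2F site were in 0 of the 8, beside 6 and 4 of all 35. The TATA box was in 14.3% of members, 8.51% of measured and 15.7% of all genes. The E-box was in 17.1%, 11.6% and 8.09%, the ETS site in 17.1%, 19.2% and 9.93%, and the E2F site in 11.4%, 3.48% and 1.81%.

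Of the 20 hnRNP genes 19 were below 0 and the median log2 ratio was -0.55. By 2-fold or more 2 were lower (10%), a share near the 8.89% of measured genes with at least 100 CPM, and 0 were higher. Hnrnpr, a relative of Syncrip that binds RNA in neurons and other cells (ENSMUSG00000066037, chromosome 4), had 4710 untreated and 1765 Adriamycin reads, or 5.33 and 1.96 RPKM. It was 2.72-fold lower (log2 ratio -1.44, -1.52 to -1.36), the lowest hnRNP. Hnrnpd, also known as AUF1, binds AU-rich elements and promotes mRNA decay, and Hnrnpdl is its close relative. Hnrnpdl had 10667 and 5388 reads, or 55.7 and 27.6 RPKM, a 2.02-fold lower value (log2 ratio -1.01, -1.06 to -0.97). Hnrnpd had 14153 and 7324 reads, or 48.4 and 24.6 RPKM, just inside 2-fold (log2 ratio -0.98, -1.02 to -0.94). These paralogs lie 54.6 kb apart on chromosome 5. Hnrnpab, of the same group, had 21665 and 15267 reads (log2 ratio -0.53, -0.56 to -0.50).

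Hnrnpc, which binds uridine tracts and keeps cryptic exons out of mRNA, had 24814 and 13305 reads, or 144 and 75.9 RPKM (log2 ratio -0.93, -0.96 to -0.90). Hnrnpu, a nuclear scaffold protein and the member with most untreated reads, had 53505 and 33378 (log2 ratio -0.71, -0.73 to -0.69). Its relative Hnrnpul2 had 13637 and 9037 reads, or 48.2 and 31.4 RPKM (log2 ratio -0.62, -0.66 to -0.58). Hnrnpul1 was close to it in level, with 13950 and 10508 reads, or 40.5 and 29.9 RPKM (log2 ratio -0.44, -0.47 to -0.40). Hnrnpl, which binds CA repeats, had 30025 and 20449 reads, or 127 and 84.7 RPKM (log2 ratio -0.58, -0.61 to -0.56). Its paralog Hnrnpll, best known from lymphocytes, had 4963 and 2813, or 10.7 and 5.94 RPKM (-0.85, -0.91 to -0.78). Hnrnpk, which binds C-rich RNA and is a cofactor of p53, had 25873 and 19215 reads (log2 ratio -0.46), and Hnrnpm had 19758 and 16093 (-0.32). All of these were below 0 under each of the 4 scalings.

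The F and H group, which binds runs of G, held the widest spread among the hnRNPs. Hnrnph1 had 13467 untreated and 17371 Adriamycin reads, or 58.0 and 73.3 RPKM, and was 1.27-fold higher (log2 ratio 0.34, 0.31 to 0.37). No other hnRNP was above 0, except Hnrnph3 and Hnrnpa3 when total counts set the scaling. Hnrnph2, its close paralog on the X chromosome, had 3370 and 1783 reads, or 19.4 and 10.1 RPKM (log2 ratio -0.95, -1.03 to -0.86). Hnrnph1 per counted exon length was 2.99 times Hnrnph2 untreated and 7.29 times with Adriamycin. These multiples depended on the length used. On the longest coding transcript the 2 genes had 140 and 21.2 RPKM untreated, and 177 and 11.0 RPKM with Adriamycin. Hnrnpf had 7369 and 5189 reads, or 60.8 and 42.0 RPKM (log2 ratio -0.53, -0.59 to -0.48). Hnrnph3 had 1974 and 1945 reads, or 15.8 and 15.2 RPKM (log2 ratio -0.05, -0.14 to 0.04). Summed over the 4 genes, the group had 658 CPM untreated and 648 CPM with Adriamycin (log2 ratio -0.02), so with TMM its total differed little while its composition did. This sum is of reads and not per length. Total counts shift log2 ratios by 0.145 and upper-quartile factors by -0.122, so the sign for the total depends on the scaling.

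The A and B group, the core of classical hnRNP particles, had a median of -0.30 and all 4 genes below 0, except Hnrnpa3 with total counts. Hnrnpa2b1, which also binds methylated RNA, had 47900 and 33174 reads, or 183 and 124 RPKM (log2 ratio -0.56, -0.58 to -0.54). Hnrnpa0 had 16279 and 12724 reads, or 153 and 117 RPKM (log2 ratio -0.38, -0.42 to -0.35). Hnrnpa1, the best known splicing silencer of the group, had 5199 and 4548 reads, or 41.5 and 35.6 RPKM (log2 ratio -0.22, -0.28 to -0.16). Hnrnpa3 had 1932 and 1785 reads, or 9.002 and 8.16 RPKM (log2 ratio -0.14, -0.24 to -0.05). The last 2 values are uncertain. An alignment of annotated mouse pseudogenes (M21) to the member transcripts found 33 copies of Hnrnpa3 and 13 of Hnrnpa1, at 90% identity or more over at least 50% of the copy. The authors' counting command sets no option for reads that map to several places, so reads these genes share with their copies may be missing from both libraries.

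Copies were found for 17 members, 75 in all. Those of Hnrnpk held 1833 untreated and 1058 Adriamycin reads, the most of any member, and those of Srsf3 held 261 and 86. Among the 21 members with no copy, 2 were at least 2-fold lower (Srsf1 and Tra2a) and the median was -0.52. Those 2 are 9.52%, near the 6.95% of all measured genes and the 8.89% of those with at least 100 CPM. The other members at least 2-fold lower, Srsf3, Srsf7, Hnrnpr, Tra2b, Srsf10 and Hnrnpdl, all have copies. The part of the copies in their ratios was not tested. Exons of 17 members overlap those of another gene, mostly on the opposite strand, and strand was not used in counting. The overlap covered over 20% of the counted length in 5 members, Srsf4, Hnrnpab, Hnrnpf, Srsf2 and Ptbp1. Of the 8 members at least 2-fold lower, Srsf1 and Hnrnpr have such an overlap, over 1.72% and 3.22% of their exon length.

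**Figure D2:**
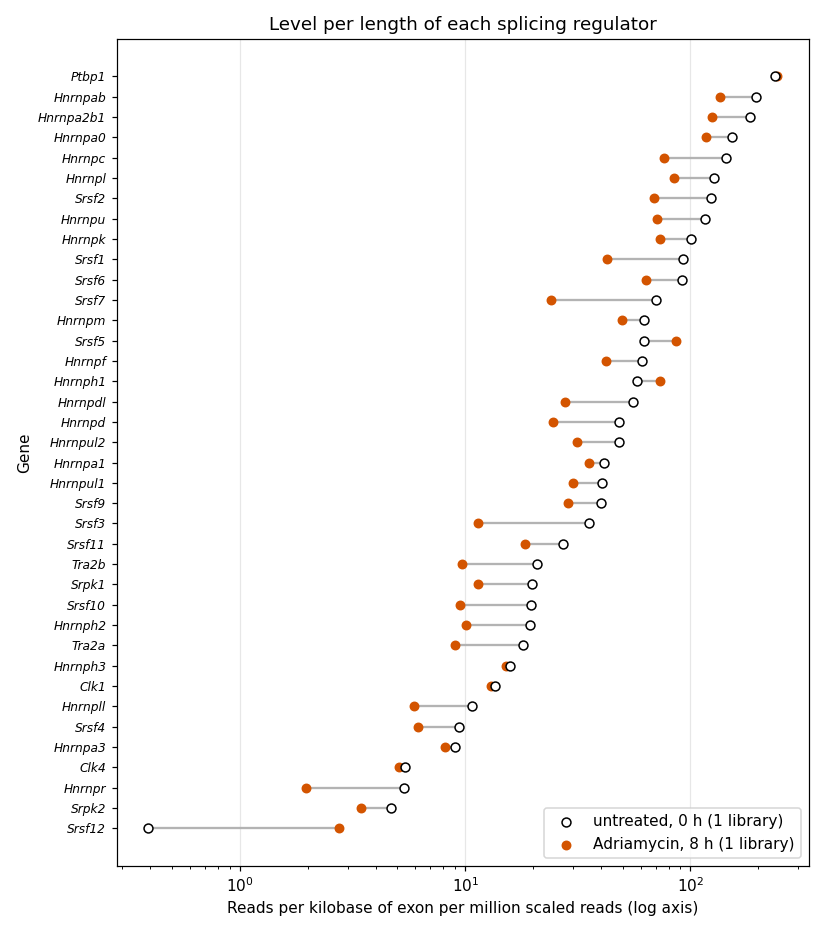
Level of each of the 38 genes in reads per kilobase of counted exon (RPKM), on a log axis, ordered by the untreated library. Open points are the untreated library and filled points the Adriamycin library. Filled points lie left of the open ones for 34 genes, and Ptbp1 is at the top in both.

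None of the 4 SR protein kinases reached 2-fold, and their median log2 ratio was -0.27. Srpk1, the main cytoplasmic kinase of SR proteins, had 9699 and 5724 reads, or 19.7 and 11.4 RPKM (log2 ratio -0.79, -0.84 to -0.74). Srpk2 had 2599 and 1948 reads, or 4.70 and 3.46 RPKM (log2 ratio -0.44, -0.53 to -0.36). The nuclear kinases Clk1 and Clk4, themselves spliced in response to stress, had ratios near 0. Clk1 had 4375 and 4283 reads, or 13.5 and 13.0 RPKM (log2 ratio -0.06, -0.12 to 0.0026). Clk4 had 1251 and 1188 reads, or 5.43 and 5.05 RPKM (log2 ratio -0.10, -0.22 to 0.01). The annotation gives each of them 7 retained-intron transcripts, of 13 for Clk1 and 14 for Clk4, and a count per gene does not separate these from coding ones.

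Tra2a and Tra2b, SR-like proteins that bind GA-rich exonic enhancers, were lower together. Tra2b had 7615 and 3611 reads, or 20.7 and 9.64 RPKM, and was 2.15-fold lower (log2 ratio -1.10, -1.16 to -1.05). Tra2a had 4987 and 2522 reads, or 18.1 and 8.96 RPKM, and was 2.02-fold lower (log2 ratio -1.01, -1.08 to -0.94). Ptbp1, the polypyrimidine tract binding protein, had a ratio near 0. It had 44553 untreated and 46581 Adriamycin reads, or 236 and 242 RPKM (log2 ratio 0.04, 0.02 to 0.06), the highest level per counted exon length of all members in both libraries. Some paralog pairs thus had close ratios, with log2 differences within a pair of 0.093 or less. These were Srsf3 with Srsf7, Srsf4 with Srsf6, Tra2a with Tra2b, Hnrnpd with Hnrnpdl and Clk1 with Clk4. All other pairs compared lay farther apart, such as Hnrnph1 minus Hnrnph2 at 1.29 and, the widest, Srsf10 minus Srsf12 at -3.85.

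The order of levels per length was led by Ptbp1, Hnrnpab (196 and 135 RPKM), Hnrnpa2b1, Hnrnpa0 (153 and 117 RPKM) and Hnrnpc in the untreated library. In the Adriamycin library Srsf5 stood at rank 5, from rank 14 untreated, and Hnrnph1 at rank 8, from 16. Srsf7 moved from rank 12 to 22. With the longest coding transcript in place of the counted exons, 4 of the 5 highest genes untreated were among the highest 5 again. Hnrnpa2b1 then stood above Ptbp1 in the untreated library. On that length Srsf5 ranked 9, Hnrnph1 11 and Srsf7 15 untreated, so the moves in rank above hold for counted exons only. Neighbours in this order cannot be set apart beyond replicate spread, since there is 1 library each.

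**Figure D3:**
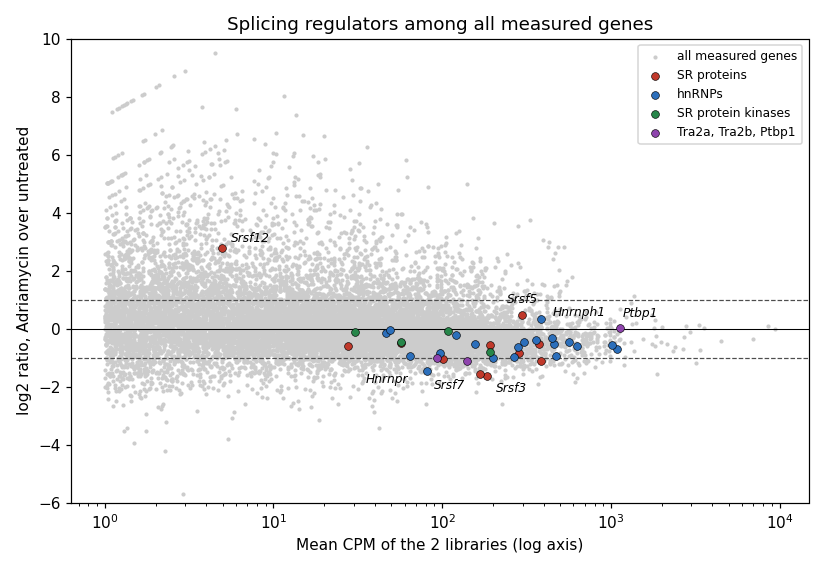
Log2 ratio of Adriamycin over untreated against mean CPM of the 2 libraries (log axis), with all 14871 measured genes in grey and the 38 splicing regulators in colour by role. Dashed lines mark 2-fold, and most coloured points lie at high CPM between 0 and the lower line, with Srsf12 alone at low CPM above the upper line.

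An NMD transcript is annotated in M21 for 26 of the 38 members (68.4%) and for 9 of the 11 SR genes, against 24.9% of measured genes and 31.4% of measured genes with at least 100 CPM. The 26 members with such a transcript had a median log2 ratio of -0.59 and 7 (26.9%) were at least 2-fold lower. The 12 members without one had a median of -0.48 with 1 lower (8.33%). Of all measured genes 6.95% were at least 2-fold lower, and of those with at least 100 CPM 8.89% were. Whether the annotation bears on the ratios was not tested. Counts per gene sum coding and NMD transcripts, so which of them differed was not tested. Genomic span and log2 ratio had a Spearman rho of -0.12 over the 38 members, given as a description. The 14 members under 10 kb had a median of -0.53 and the 15 of at least 20 kb -0.60.

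Other splicing genes give the context. Of all measured genes, 6.95% were at least 2-fold lower and 17.0% at least 2-fold higher. RS-domain cofactors were nearest to the members, with a median log2 ratio of -0.57 over 30 genes. Only Bclaf1, 3.33% of the list, was past 2-fold on the lower side (12562 and 6097 reads, 2.10-fold). Rbm17, a factor that acts at splice acceptor sites, was higher (6707 and 15675 reads, 2.29-fold). Core spliceosome and snRNP proteins had 3 lower (4.17%) and 1 higher of 72, with a median of -0.39. The share of lower genes in both lists was below that of all measured genes. The lower ones were Snrpn (2.61-fold), Cdc5l (2.18-fold) and Prpf3 (2.03-fold), and the higher one was the ubiquitin ligase gene Prpf19 (8809 and 20574 reads, 2.29-fold). Exons of Snrpn are shared in part with other transcripts of its imprinted locus, so its count is uncertain.

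Other splicing regulators had the widest range, with 10 lower (16.9%) and 5 higher of 59 measured and a median of -0.33. Esrp1, the epithelial splicing regulator, was 6.36-fold lower on 870 and 139 reads, and Pcbp4 3.30-fold lower on 5216 and 1613. The Hnrnpr relative Syncrip was 2.64-fold lower on 9047 and 3495 reads (log2 ratio -1.40, -1.46 to -1.34), beside -1.44 for Hnrnpr. Elavl4 was 4.26-fold lower on 81 and 19 reads. On the other side, Celf5 had 1140 and 7218 reads, 6.21-fold higher, and Rbm38, whose gene is a known p53 target, had 4655 and 12871, 2.71-fold higher. Mbnl2 was 2.34-fold higher and Rbm20 2.96-fold on 95 and 288 reads.

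Other kinases and phosphatases of SR proteins had 2 lower (13.3%) and 0 higher of 15, with a median of -0.45. These were Cdk12, a kinase of RNA polymerase II (7855 and 3551 reads, 2.26-fold), and the phosphatase subunit Ppp1cb (2.12-fold). Genes of SR protein import and mRNA export had 1 lower, Sarnp (2.33-fold), of 18 and a median of -0.40. That is 5.56%, against 6.95% of all measured genes. Genes of nonsense-mediated decay and the exon junction complex had 0 past 2-fold of 17, with 9 of the 17 below 0 and a median of -0.21. That median was -0.07 with total counts and -0.09 with a mean of at least 10 CPM. Each list's members are few and share these 2 libraries, so the medians are a description.

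**Figure D4:**
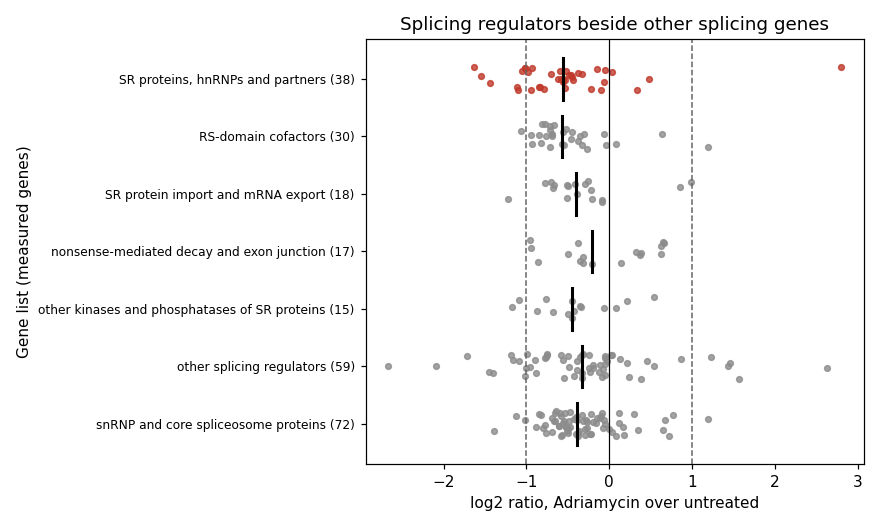
Log2 ratio of Adriamycin over untreated for the 38 splicing regulators (top) and 6 lists of other splicing genes, with the number of measured genes in parentheses. Points are genes, black bars are medians and dashed lines mark 2-fold. All 7 medians lie below 0, from -0.57 to -0.21.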

How the data were processed

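RNA sequencing was done on 1 untreated and 1 Adriamycin library of mouse embryonic stem cells. What the authors deposited are unnormalized counts of reads for each gene. Per the file headers, the authors counted paired-end reads with featureCounts 2.0.3 over exons of annotation release 105 of GRCm39, with no option for strand, for multi-mapping reads or for counting pairs as fragments. The build and counter version differ from those in the submitters' processing notes, which list mm9, mm10 and featureCounts 1.6.0, besides HISAT2 2.0.4 and Trim Galore 0.3.4. The exon length column, another deposited value, gave the levels per length. Symbols came from GENCODE M21 matched on the Ensembl ID (52081 found, 3333 without a symbol). Counts on the 37 mitochondrial genes were 0 in both libraries.

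Library sizes were scaled with TMM (edgeR 4.0.16, R 4.3.3), and a pseudocount of 0.5 read, in proportion to library size, was added for ratios (Python 3.11.15, numpy 2.4.6, pandas 2.3.3, scipy 1.17.1). Intervals are Clopper-Pearson intervals of the conditional binomial share. Mates counted separately and PCR copies are not independent, so they are too narrow. Pseudogene copies were aligned with minimap2. The ratio and interval code was tested on simulated data. Promoter windows are from RefSeq, GRCm38.p6, and are used for sequence only. Alternatives were other scalings, filters, pseudocounts, fold thresholds, and leaving out members with copies or overlaps.

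Members and lists were chosen with earlier results of these data known. All members are named. Full values are given for members past 2-fold, the 5 highest and 5 lowest ratios, the 5 highest levels and paralog pairs. From each list up to 4 genes per direction were named, those whose interval lay farthest from no difference, and Mdm2 and Cdkn1a served as the drug check.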

Additional observations from a re-analysis of the deposited data

How the results depend on the processing

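No paired analysis was possible because each condition has 1 library. With total counts there were 3 lower members in place of 8, as Srsf1, Srsf10, Hnrnpdl, Tra2a and Tra2b lay inside 2-fold (log2 ratios from -0.97 to -0.87). On that scaling 4.85% of all measured genes were at least 2-fold lower. The median of all members was then -0.42, and the medians were -0.45 for SR proteins, -0.40 for hnRNPs, -0.13 for SR protein kinases and -0.87 for Tra2a, Tra2b and Ptbp1. With upper-quartile factors these 5 medians were -0.68, -0.72, -0.67, -0.40 and -1.13, since such a factor shifts every ratio alike, and Hnrnpd, Hnrnph2 and Hnrnpc passed 2-fold. With a mean of at least 10 CPM, which leaves out Srsf12, 0 members were higher and the SR median was -0.72. The median of the nonsense-mediated decay list, -0.21, was -0.07 with total counts, -0.33 with upper-quartile factors and -0.09 with that filter. Without Srsf12 alone, 0 members were higher too. A threshold of 1.5-fold gave 17 lower members, against 18.9% of all measured genes. Without members that have pseudogene copies (chosen after seeing the data), 2 of 21 were lower (9.52%, against 6.95% of all measured genes). Median-of-ratios factors, no filter, a pseudocount of 5 reads and leaving out members with exon overlap kept every count within 1.5 times and every direction. The interval held 0 for 3 members with halved counts, as with full counts. Leaving out mitochondrial genes changed nothing, as none had reads.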

Other observations

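Srsf3, the member with the lowest ratio, lies beside Cdkn1a on chromosome 17, the CDK inhibitor gene that answers to p53. These neighbours were looked at after their values were seen. The gap between Srsf3 and Cdkn1a is 47.6 kb (GRCm39), and Cdkn1a was higher (2289 and 7240 reads, log2 ratio 1.63, 1.57 to 1.70) where Srsf3 was lower. Trp53cor1, the noncoding RNA between them, had 23 and 95 reads (log2 ratio 2.00, 1.35 to 2.74), and Rab44, beyond Cdkn1a, had 37 and 266 (2.80, 2.32 to 3.36). On the other side of Srsf3, Stk38 had 4649 and 3053 reads (log2 ratio -0.63, -0.70 to -0.57) and Kctd20 had 6826 and 4873 (-0.51, -0.57 to -0.46). The ratios of measured genes within 100 kb thus changed sign between Srsf3 and Trp53cor1, which are 14.1 kb apart.

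Srsf5, the higher abundant SR gene, has Susd6 64.7 kb away on chromosome 12, with 2785 and 10031 reads (log2 ratio 1.82, 1.76 to 1.88). Its other measured neighbour within 100 kb, Smoc1, had 1831 and 1980 reads (log2 ratio 0.08, -0.01 to 0.18). Srsf12 on chromosome 4 is flanked by Pnrc1 (1710 and 1698 reads, log2 ratio -0.04) and Pm20d2 (49 and 47 reads, -0.09). Farther out, Gabrr1 at 45.4 kb had 18 and 69 reads (log2 ratio 1.88, 1.15 to 2.75) and Rngtt at 77.0 kb had 1784 and 1648 (-0.14, -0.24 to -0.04). Around Srsf7 the 4 measured neighbours within 100 kb had log2 ratios from -0.50 (Gemin6) to 0.39 (Morn2), beside -1.54 for Srsf7.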
